A study of Homo sapiens with 36 samples.

Results

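The genes described here store, import, export or sense cellular iron: FTH1, FTL, TFRC, SLC40A1, SLC11A2, ACO1, IREB2, HMOX1 and STEAP1. They are 9 of the 19137 gene symbols in the deposited tables. They were taken by symbol and not by a cutoff on measured values, though with earlier results of these data known. Each is represented by its transcript row with the highest mean count. The counts come from 36 sequencing libraries of RNA and of ribosome footprints, the short stretches of message that ribosomes cover, in cultured human cells of 2 kinds. The first is MCF10A-ER-Src, an immortal breast epithelial line whose Src kinase is joined to a hormone-binding piece of the oestrogen receptor and is switched on by 4-hydroxytamoxifen (4-OHT). The groups were 4-OHT at 1 µM for 1, 4 and 24 h, the ethanol vehicle for 1, 4 and 24 h, and cells at 0 h. Every ER-Src group, the controls included, carries the fusion. Under cycloheximide the 0 h sample is replicate 1 and the ethanol samples are replicate 2, so vehicle and replicate number cannot be told apart. The second is BJ, a line of skin fibroblasts, in 3 derivatives called EH, EL and ELR, names that are left unexplained in the labels. As background, stepwise BJ series of this kind receive telomerase first, SV40 early genes next and mutant HRAS last. No label says whether a line is 1 clone. Footprints were taken after 100 µg/ml cycloheximide for 90 s, which freezes elongating ribosomes, or harringtonine (2 µg/ml, 5 min), which stalls initiating ribosomes while others run off.

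Total counts ranged from 2071883 to 3008760 in the 10 RNA libraries, from 1178012 to 3628073 in the 16 cycloheximide libraries and from 129175 to 374359 in the 10 harringtonine libraries. All 10 epithelial markers were above 1 CPM (counts scaled to a common library size) in the 10 ER-Src cycloheximide libraries, with a summed level of 9771 to 20066 CPM. The 10 fibroblast markers summed to 30967 and 31048 CPM in the EH cycloheximide libraries, 4593 and 4640 CPM in EL, and 571 and 581 CPM in ELR, where DCN, LUM and PDGFRA were under 1 CPM. The part of this difference in the changes between BJ lines was not tested. In such bulk samples fewer cells of a type and less RNA per cell cannot be told apart. BJ footprint replicates differed by little more than sampling noise (chi-square per gene 1.09 to 1.18, against 3.83 to 5.27 in ER-Src), and no label says that they are separate cultures. Their p-values may therefore measure technical spread.

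Iron that enters a cell is either used at once, much of it in haem and iron-sulfur clusters, or stored inside ferritin, a hollow shell of heavy (FTH1) and light (FTL) chains. Iron regulatory proteins, encoded by ACO1 and IREB2, bind a short RNA hairpin when iron is scarce. A hairpin in the 5′ untranslated region of a ferritin message then blocks its translation, whereas hairpins in the 3′ untranslated region of the transferrin receptor message, TFRC, protect that message from decay. Ferritin is for this reason a textbook case of control at the ribosome, and the receptor of control at the level of RNA.

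The hairpins are shown because they are the elements through which these messages answer to iron. They were found in the canonical GENCODE release 44 transcript of each gene on GRCh37, on the strand of the message only. The pattern was an unpaired C, 5 bases, the letters CAGUGN, and 5 bases that pair with the first 5. It had to stand above a lower stem with at least 4 of 6 bases paired. Capitals mark the unpaired C and the loop of 6 bases. Each is read 5′ to 3′ and each matched the genome.
FTH1 5′ untranslated region, from base 33 of 209, chr11:61735046-61735074, minus strand: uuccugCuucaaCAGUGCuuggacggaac
FTL 5′ untranslated region, from base 27 of 199, chr19:49468592-49468620, plus strand: cucuugCuucaaCAGUGUuuggacggaac
SLC40A1 5′ untranslated region, from base 98 of 326, chr2:190445387-190445415, minus strand: caacuuCagcuaCAGUGUuagcuaaguuu
TFRC 3′ untranslated region, from base 938 of 2661, chr3:195777850-195777878, minus strand: aauuauCggaagCAGUGCcuuccauaauu
TFRC, from base 1342, chr3:195777446-195777474: cauuauCgggagCAGUGUcuuccauaaug
TFRC, from base 1407, chr3:195777381-195777409: cuguauCggagaCAGUGAucuccauaugu
TFRC, from base 1454, chr3:195777334-195777362: aauuauCgggaaCAGUGUuucccauaauu

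The ferritin hairpins shared 26 of 29 bases, and both lay close to the 5′ ends of their messages. The SLC40A1 hairpin shared 13 of 29 bases with that of FTH1. Among all genes searched, 5 of 17467 5′ untranslated regions (0.0286%) and 16 of 18938 3′ untranslated regions (0.0845%) held a match. TFRC was the member with 4. This strict pattern was not found in the untranslated regions of the canonical transcripts of SLC11A2, ACO1, IREB2, HMOX1 or STEAP1. Other transcripts of these genes, which can differ in their untranslated regions, were not searched. A match describes sequence and was not measured as a site.

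Per kilobase of coding sequence, ferritin and the receptor stood above the other members. In uninduced ER-Src cells FTH1 had a mean footprint level of 387.5 CPM per kilobase, TFRC 217.5 and FTL 139.3, which placed them at the 94.9th, 91.3rd and 86.8th percentiles of 10242 expressed genes. In EH fibroblasts the levels were 403.7 for FTH1, 368.7 for FTL and 169.7 CPM per kilobase for TFRC, so that FTL stood above TFRC there and below it in ER-Src cells. IREB2 exceeded ACO1 in uninduced epithelial cells (38.7 and 20.6 CPM per kilobase), and ACO1 exceeded IREB2 in EH fibroblasts (65.7 and 20.6). HMOX1, SLC11A2 and STEAP1 lay between 10.0 and 66.4 CPM per kilobase in both kinds of cell.

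In the BJ lines the 2 ferritin chains differed. FTH1, the chain that oxidises iron for storage (chromosome 11, 61727190 to 61735106, minus strand), had footprint levels of 225.0 and 218.2 CPM in EH, 88.4 and 78.1 CPM in EL and 64.2 and 67.4 CPM in ELR. Its RNA, 1 library per line, stood at 366.9 CPM (EH), 227.8 CPM (EL) and 100.8 CPM (ELR). Every EH footprint library was above every EL library, and every EL library above every ELR library, and the single RNA libraries stood in the same order. Relative to EH, FTH1 footprints fell by 1.39 ± 0.10 on the log2 scale in EL (SE, adjusted p = 3.18e-20, edgeR quasi-likelihood test) and by 1.73 ± 0.11 in ELR (adjusted p = 8.27e-24). The RNA change was −0.70 ± 0.28 in EL, which did not pass the test (adjusted p = 0.205), and −1.89 ± 0.29 in ELR, which did (adjusted p = 0.000798). Both footprint calls held in each of the 10 alternatives tried. The smaller step of FTH1 from EL to ELR, −0.34 ± 0.11, was lost in 5 of 10 alternatives, among them those without EL replicate 1 (−0.25, adjusted p = 0.205) and without ELR replicate 1 (−0.30, adjusted p = 0.149).

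FTL, the chain that promotes the mineral core (chromosome 19, 49468566 to 49470136, plus strand), did not follow FTH1. Its footprint levels were 212.7 and 174.4 CPM in EH, 137.8 and 143.4 CPM in EL and 217.0 and 226.1 CPM in ELR, so both EL libraries lay below the others. RNA was 217.4 CPM (EH), 159.5 CPM (EL) and 122.7 CPM (ELR), lowest in the line whose footprints were highest. FTL footprints rose by 0.67 ± 0.08 on the log2 scale in ELR against EL (adjusted p = 3.28e-11), a call that held in all 10 alternatives. Against EH they fell in EL by 0.46 ± 0.09 (adjusted p = 3.47e-05), a call lost in the fit that spans all cycloheximide libraries (adjusted p = 0.116). The ELR against EH difference of 0.21 ± 0.09 (adjusted p = 0.0328) was lost in 5 of 10 alternatives, including those without EH replicate 2 (0.11, adjusted p = 0.41) or ELR replicate 2 (0.19, adjusted p = 0.113). RNA of FTL fell by 0.85 ± 0.23 in ELR against EH (adjusted p = 0.0262), which DESeq2 did not call (adjusted p = 0.125).

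The ratio of the 2 chains within a library needs no scaling between libraries. Per coding base, FTH1 to FTL was 1.01 and 1.20 in EH footprints, 0.613 and 0.521 in EL and 0.283 and 0.285 in ELR. In RNA it was 1.61 in EH, 1.37 in EL and 0.786 in ELR. The footprint ratios of the 3 lines did not overlap, and in each line they were below the single RNA ratio. Both divide by coding length, and whether RNA counts also cover untranslated regions was not checked. The 95% counting intervals of the RNA ratio overlapped between EH (1.44 to 1.81) and EL (1.19 to 1.57), and that of ELR (0.669 to 0.923) was below both. Under harringtonine the ratios were 1.02 and 0.717 in EH, 0.403 and 0.319 in EL and 0.133 and 0.163 in ELR, from 5 to 41 counts per gene and library. In ER-Src cells FTH1 was ahead in every library. Ratios were 1.96 to 5.27 in 10 cycloheximide libraries (median 2.70) and 2.17 to 4.14 in 7 RNA libraries (median 3.38). The 4 harringtonine ratios were 1.09 to 2.31, from 10 to 41 counts per gene and library. Their intervals included 1 at 0, 1 and 4 h of 4-OHT (0.500 to 2.42 at 0 h) but not at 24 h (1.28 to 4.33). Both ferritin genes have processed copies in the genome (25 annotated for FTH1 and 16 for FTL). The sources used here do not say how the authors treated reads that match several places, so levels of both chains are uncertain to that extent.

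**Figure D1:**
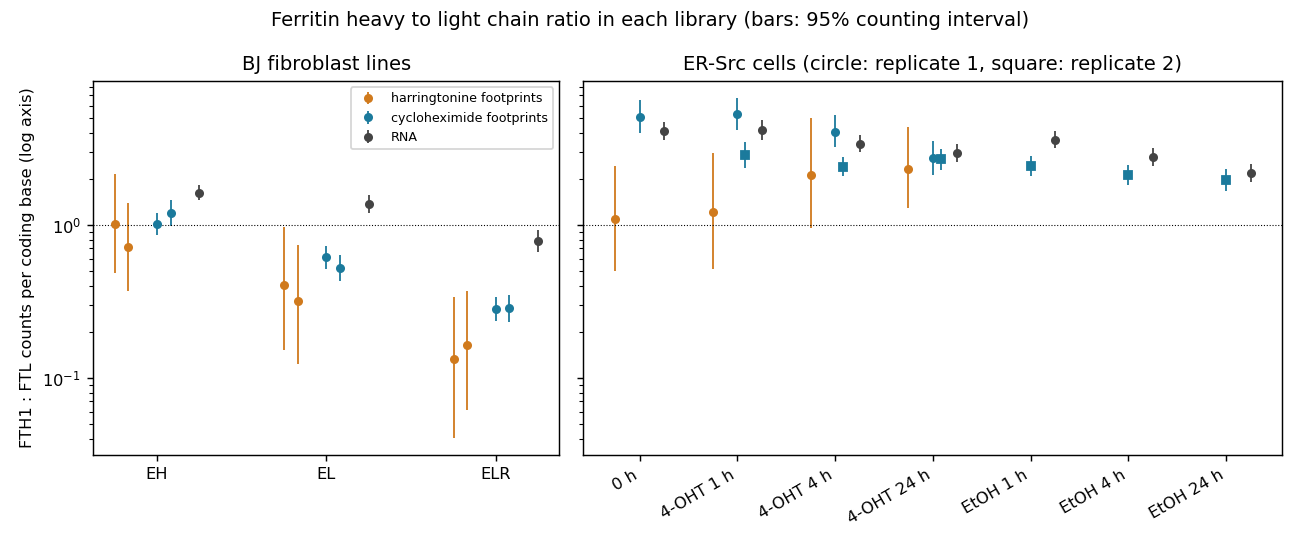
The ratio of FTH1 to FTL counts per coding base (log axis) in each library, by BJ line (left) and by ER-Src treatment (right), with 95% counting intervals as bars and colours for harringtonine footprints, cycloheximide footprints and RNA. The cycloheximide ratios step down to 0.283 and 0.285 in ELR, against 1.01 and 1.20 in EH, while all ER-Src ratios are above 1. The ER-Src harringtonine intervals at 0, 1 and 4 h include 1.

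Of the 8 members tested in BJ footprints, none rose and 6 fell in EL against EH, 75.0% of them. Of all genes tested in that comparison 41.5% were called, 19.1% higher and 22.4% lower. Between ELR and EL, 3 members rose and 3 fell, where 36.1% of all genes were called (17.4% higher, 18.7% lower). Between ELR and EH, 1 rose and 5 fell, where 53.4% of all genes were called (25.5% higher, 27.8% lower).

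TFRC, the receptor that brings transferrin-bound iron into the cell (chromosome 3, 195739382 to 195809024, minus strand), varied little. Its footprint levels were 403.8 and 369.8 CPM in EH, 373.6 and 403.1 CPM in EL and 329.7 and 334.8 CPM in ELR, and its RNA stood at 242.0 CPM (EH), 209.3 CPM (EL) and 230.3 CPM (ELR). The log2 change in EL against EH footprints was 0.02, with a 95% interval of −0.11 to 0.14. In ELR against EH it was −0.19 ± 0.07 (adjusted p = 0.00943), a call lost in 4 of 10 alternatives, among them those without EH replicate 1 (−0.14, adjusted p = 0.179) or ELR replicate 1 (−0.17, adjusted p = 0.0953). Against EL it was −0.21 ± 0.06 (adjusted p = 0.00176), lost in 4 of 10 alternatives, with DESeq2 (adjusted p = 0.0942), in the fit of all cycloheximide libraries (adjusted p = 0.466) and without EL replicate 2 (−0.15, adjusted p = 0.0675) or ELR replicate 1 (−0.20, adjusted p = 0.0543).

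The 2 iron regulatory proteins moved in opposite directions in ELR against EL. ACO1, which is the cytosolic aconitase when it carries an iron-sulfur cluster (chromosome 9, 32384601 to 32454767, plus strand), had 189.6 and 160.7 CPM of footprints in EH, 108.4 and 94.2 CPM in EL and 190.4 and 161.9 CPM in ELR. Its RNA was 180.7 CPM (EH), 86.8 CPM (EL) and 231.4 CPM (ELR), low in the same line. ACO1 footprints fell by 0.77 ± 0.10 in EL against EH (adjusted p = 3.6e-09) and rose by 0.82 ± 0.09 in ELR against EL (adjusted p = 4.57e-12), both in all 10 alternatives. RNA gave −1.07 ± 0.23 (adjusted p = 0.015) and 1.40 ± 0.23 (adjusted p = 0.00278). The first of these was lost with DESeq2 or with transcript rows summed, where the highest adjusted p was 0.0569.

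IREB2, the partner that is destroyed when iron is plentiful (chromosome 15, 78729773 to 78793795, plus strand), had 58.6 and 60.3 CPM of footprints in EH, 65.6 and 51.9 CPM in EL and 36.9 and 42.9 CPM in ELR. The ELR libraries were the lowest of the 6. IREB2 fell by 0.57 ± 0.14 in ELR against EL (adjusted p = 0.000865) and by 0.56 ± 0.17 against EH (adjusted p = 0.0043). The first call was lost without EL replicate 1 (−0.39, adjusted p = 0.097), and both were lost with DESeq2 and without ELR replicate 1 (−0.45, adjusted p = 0.0768, and −0.42, adjusted p = 0.0986). RNA of IREB2 was 96.8 CPM (EH), 122.9 CPM (EL) and 74.2 CPM (ELR), and no RNA difference passed the test (adjusted p = 0.0902 for ELR against EL).

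HMOX1, which breaks down haem and so frees its iron (chromosome 22, 35776354 to 35790207, plus strand), had the largest footprint fall among members in ELR against EH. It stood at 56.3 and 58.4 CPM in EH, 19.7 and 13.8 CPM in EL and 13.1 and 11.96 CPM in ELR, with no overlap between EH and the others. The falls were 1.73 ± 0.20 on the log2 scale in EL (adjusted p = 4.44e-11) and 2.15 ± 0.22 in ELR (adjusted p = 2.05e-13). In the fit that spans all cycloheximide libraries the EL call was lost (adjusted p = 0.112). HMOX1 RNA was scarce, with 27 counts in EH, 12 in EL and 6 in ELR, and its differences did not pass the test. The harringtonine libraries held 7 HMOX1 counts in EH, 0 in EL and 1 in ELR.

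STEAP1, a membrane protein of a family of metalloreductases (chromosome 7, 89783770 to 89794143, plus strand), dipped in EL. Footprints gave 13.1 and 7.3 CPM in EH, 2.7 and 3.2 CPM in EL and 11.9 and 11.96 CPM in ELR. RNA gave 63 counts (27.2 CPM) in EH, 2 counts (0.881 CPM) in EL and 16 counts (5.74 CPM) in ELR. The RNA ratio of EL to EH was 0.0324, with a 95% counting interval of 0.00384 to 0.122. STEAP1 footprints rose by 2.01 ± 0.41 in ELR against EL (adjusted p = 4.2e-05), in all 10 alternatives. They fell by 1.79 ± 0.49 in EL against EH (adjusted p = 0.00177), a call lost without EH replicate 1 (−1.30, adjusted p = 0.154).

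The other 2 members are transporters. SLC11A2, which carries ferrous iron across membranes (chromosome 12, 51373184 to 51422349, minus strand), had 39.3 and 37.4 CPM of footprints in EH, 21.997 and 21.1 CPM in EL and 29.2 and 23.4 CPM in ELR. Its fall of 0.81 ± 0.21 in EL against EH (adjusted p = 0.00124) held in all 10 alternatives. The ELR against EH change of −0.49 ± 0.21 (adjusted p = 0.0394) was lost in 6 of 10, including those without either EH library (adjusted p = 0.158 and 0.101) or without ELR replicate 2 (−0.36, adjusted p = 0.186). SLC40A1 is ferroportin, the exporter of iron (chromosome 2, 190425316 to 190448484, minus strand). It had 28 counts in the whole series and none in 30 of the 36 libraries, among them all ER-Src libraries. In RNA it had 10 counts in EL and 7 in ELR, against 0 in EH. Against a floor of 3 counts in EH, these were 3.40-fold and 1.94-fold higher in the single libraries compared. The counting error of the EL and ELR counts is not included, and neither RNA difference passed the test. Footprints held 6 counts in EL and 4 in ELR, against 0 in EH. Against the same floor these were 1.00-fold and 0.72-fold the EH level.

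**Figure D2:**
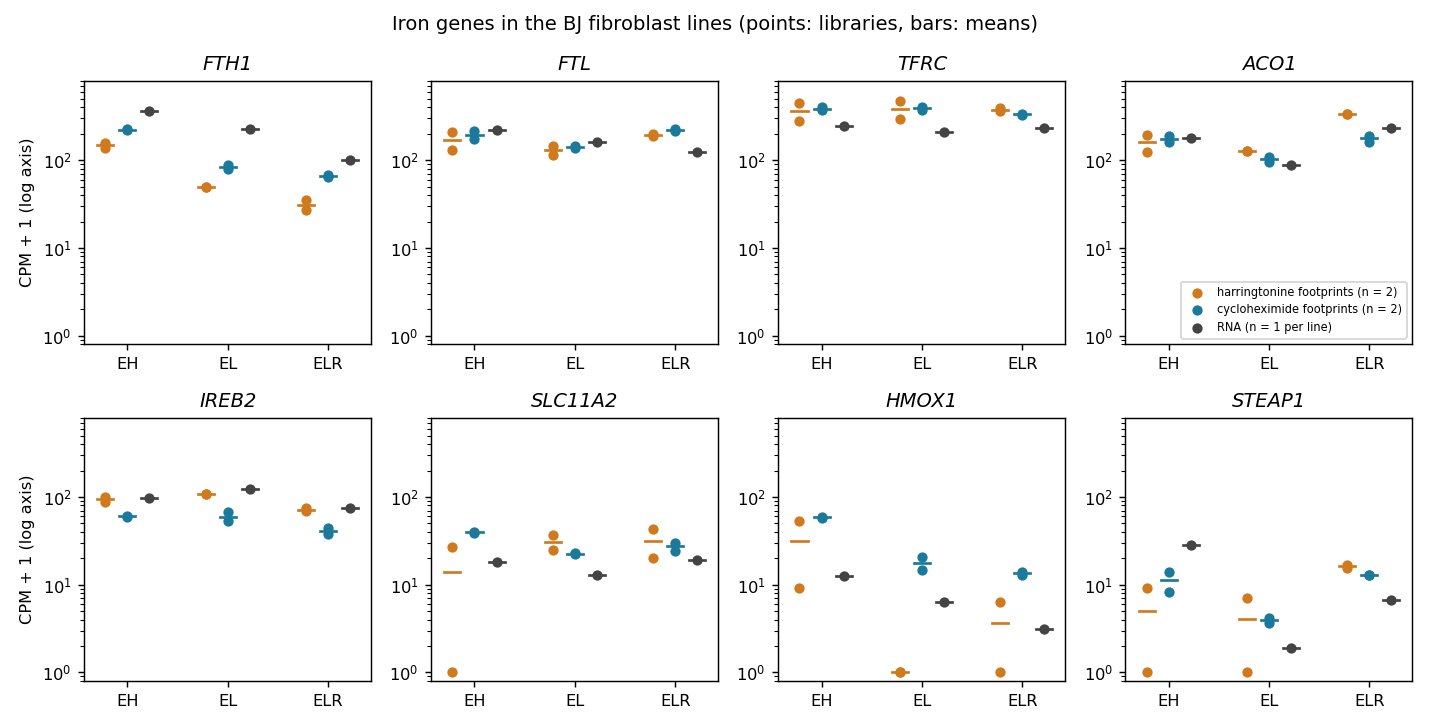
Levels of 8 members in the BJ lines EH, EL and ELR, as CPM + 1 on a log axis, with 1 point per library and a bar at the mean for harringtonine footprints, cycloheximide footprints and RNA (left to right within a line). FTH1 and HMOX1 are lowest in ELR in cycloheximide footprints and RNA, FTL footprints are highest there, and TFRC stays between 329.7 and 403.8 CPM under cycloheximide.

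Harringtonine libraries, which are shallow, gave a count per transcript rather than heights of start peaks. FTH1 had 138.4 and 157.3 CPM in EH, 48.2 and 48.0 CPM in EL and 26.3 and 33.8 CPM in ELR, from 5 to 18 counts a library. It fell by 1.69 ± 0.45 in EL against EH (adjusted p = 0.00153), 1 of 5 members tested and called (18.5% of all genes, 7.57% higher and 11% lower), and by 2.42 ± 0.47 in ELR against EH (adjusted p = 2.87e-06). The first call was lost without EH replicate 2 (−1.59, adjusted p = 0.0654), with DESeq2 (adjusted p = 0.111) and with summed rows (adjusted p = 0.0672). ACO1 had 337.0 and 337.9 CPM in ELR, against 195.4 and 122.4 CPM in EH, a rise of 0.91 ± 0.27 (adjusted p = 0.00351). These were the 2 of 5 members called between ELR and EH (30.7% of all genes, 13.3% higher and 17.4% lower). The ACO1 call was lost with DESeq2, with summed rows and without EH replicate 2 (0.63, adjusted p = 0.16).

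Each BJ line had 1 RNA library, whose spread was taken from the 4 uninduced ER-Src RNA libraries. Of 9 members tested, 2 fell in EL against EH, where 5.05% of all genes were called (1.92% higher, 3.13% lower). In ELR against EL, 1 rose and 1 fell (3.64% of all genes, 0.954% higher and 2.69% lower). In ELR against EH, 3 fell (11.2% of all genes, 3.89% higher and 7.31% lower). The members that fell in ELR against EH were FTH1, FTL and STEAP1.

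The comparison between footprints and RNA of a gene is a relative measure of how densely ribosomes cover its message. Both are scaled to library size, so it places a gene beside other genes and gives no number of ribosomes. Differences between the 2 kinds of library were not separated from it. In uninduced ER-Src cells 2 of 9 members were higher in footprints than in RNA and 4 lower, where 68.7% of all genes were called (35% higher, 33.8% lower). FTH1 averaged 212.7 ± 81.6 CPM in footprints and 347.4 ± 76.0 CPM in RNA (SD, n = 4 each), a log2 difference of −0.67 ± 0.19 (SE, adjusted p = 0.00379). FTL was also lower in footprints (−0.47 ± 0.12, adjusted p = 0.00221), as were ACO1 (−0.51 ± 0.11, adjusted p = 4e-04) and IREB2 (−0.54 ± 0.11, adjusted p = 0.000121). SLC11A2 was higher (1.19 ± 0.28, adjusted p = 0.000678), as was HMOX1 (1.82 ± 0.58, adjusted p = 0.00786). The HMOX1 call was lost without the 1 h ethanol library (0.97, adjusted p = 0.117). TFRC differed by 0.18 ± 0.09 and did not pass (adjusted p = 0.0814).

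Across the BJ lines, 3 members were higher in footprints than in RNA and 2 lower, with 68% of all genes called (34.1% higher, 34% lower). TFRC was higher by 0.76 ± 0.10 (adjusted p = 4.81e-07), SLC11A2 by 0.92 ± 0.29 (adjusted p = 0.00713) and HMOX1 by 2.22 ± 0.60 (adjusted p = 0.00226). FTH1 was lower by 0.87 on the log2 scale, at −0.87 ± 0.20 (adjusted p = 0.000533), and IREB2 stood at −0.83 ± 0.12 (adjusted p = 1.99e-06). FTL was at 0.23 ± 0.12 (adjusted p = 0.0938). These calls held in each of the 11 alternatives.

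Placed among all genes with at least 10 CPM of RNA, the ratio of FTH1 footprints to RNA stood at the 35.6th percentile in EH, the 19.3rd in EL, the 40.2nd in ELR and the 34.1st in uninduced ER-Src cells. That of FTL stood at the 52.0th in EH, the 52.4th in EL, the 80.6th in ELR and the 39.3rd in uninduced ER-Src cells. Neither chain was at the bottom of the distribution in any group. TFRC lay at the 75.3rd, 80.8th and 72.9th percentiles in EH, EL and ELR and at the 60.6th in uninduced ER-Src cells. IREB2 stayed low, at the 36.4th, 27.8th and 32.4th percentiles in the 3 lines and the 36.8th in uninduced ER-Src cells.

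**Figure D3:**
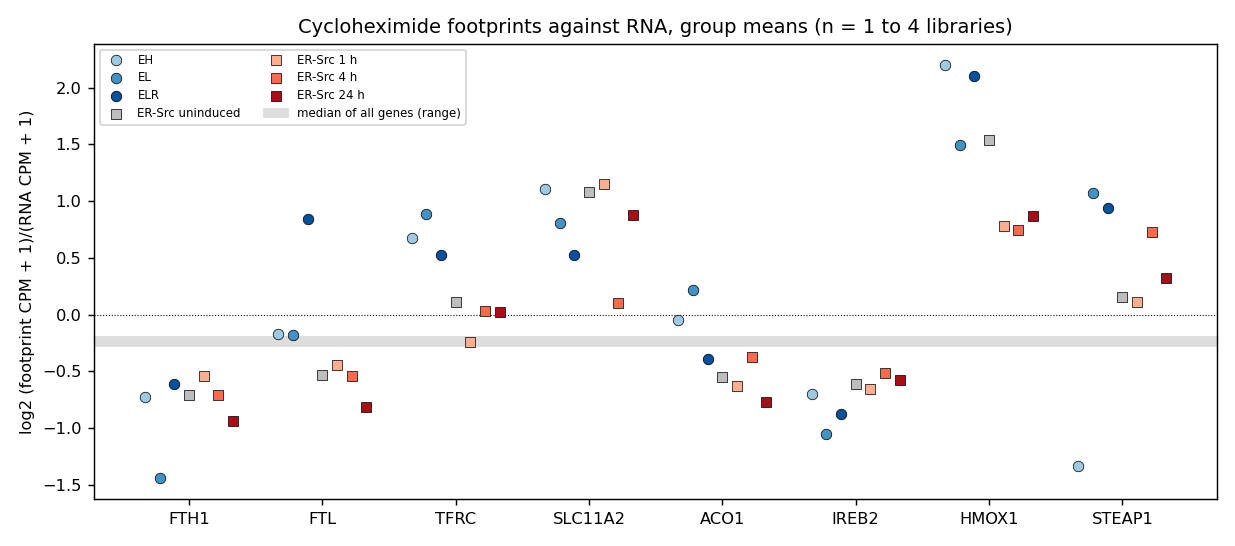
The log2 ratio of mean cycloheximide footprint CPM to mean RNA CPM (pseudocount 1) for 8 members, with circles for BJ lines, squares for ER-Src groups and a grey band for the range of the all-gene medians over groups. FTL in ELR (0.85) stands apart from the 6 other FTL ratios, which are all under 0, and IREB2 is under the grey band in every group.

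Ribosome loading, the footprint change beyond the RNA change, was tested between the lines as an interaction. No member passed in EL against EH, ELR against EL or ELR against EH, and 0.0585%, 0.0167% and 0.484% of all genes did, the last as 0.234% higher and 0.251% lower. DESeq2 called 0 members in each, and 1, 2 and 2 members had an unadjusted p under 0.05 by edgeR. FTL had the clearest value with enough reads: 1.02 ± 0.29 in ELR against EH (adjusted p = 0.17), with a 95% interval of 0.42 to 1.62, and 1.03 ± 0.29 in ELR against EL (adjusted p = 0.776). In a fit of the BJ libraries alone, whose spread comes from the near-identical footprint replicates, the ELR against EH value was 1.01 (adjusted p = 2.57e-08). Over all 9 alternatives its adjusted p ranged from 2.57e-08 to 0.368. STEAP1 gave 2.44 ± 0.56 in ELR against EH (adjusted p = 0.0501), which 4 of 9 alternatives called, including the one without EH footprint replicate 1 (3.08, adjusted p = 0.0437). FTH1 gave −0.71 ± 0.48 in EL against EH (adjusted p = 0.851) and 0.12 ± 0.49 in ELR against EH (adjusted p = 1). The interval of that second difference, −0.92 to 1.15, leaves room for a change in either direction.

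In ER-Src cells, STEAP1 was the 1 member called under 4-OHT. Its footprint level in replicate 1 was 30.8 CPM at 0 h, 28.4 at 1 h, 41.7 at 4 h and 108.9 at 24 h, and in replicate 2 it was 20.7, 30.6 and 127.0 CPM at 1, 4 and 24 h of 4-OHT. Ethanol gave 25.2, 23.7 and 20.01 CPM at 1, 4 and 24 h. RNA was 93.9 CPM at 24 h of 4-OHT, against 19.4 to 24.9 CPM in the 4 uninduced libraries, and the harringtonine library at 24 h had 138.4 CPM (58 counts), against 28.1 to 50.3 CPM (5 to 10 counts) in those at 0, 1 and 4 h. STEAP1 rose at 24 h by 2.29 ± 0.18 in footprints (SE, adjusted p = 3.6e-07) and by 2.10 ± 0.24 in RNA (adjusted p = 6.63e-05), in each of 13 and 9 alternatives. Its ribosome loading changed by 0.16 ± 0.29, which did not pass the test. It was the 1 member of 8 called in footprints, where 14.6% of all genes were called (8.8% higher, 5.84% lower), and the 1 of 9 called in RNA, where 5.65% were (4.22% higher, 1.43% lower).

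At 1 and 4 h of 4-OHT no member passed the test in footprints or RNA by edgeR or DESeq2, and 0.0196% and 0.854% of all genes did so in footprints, 0.00868% and 0.139% in RNA. At an unadjusted p under 0.05 there was 1 member, STEAP1 in footprints at 4 h (0.54 ± 0.20, adjusted p = 0.463). No member had an adjusted p under 0.05 for ribosome loading at 1, 4 or 24 h, where 0%, 0% and 0.44% of all genes did, and none had an unadjusted p under 0.05 or a call by DESeq2. TFRC footprints at 24 h of 4-OHT were 421.3 and 558.0 CPM, against 413.6 to 542.4 CPM in the 4 uninduced libraries, and the log2 difference was −0.02 with a 95% interval of −0.42 to 0.39. ACO1 had 121.0 CPM of RNA at 24 h of 4-OHT, against 73.4 to 88.7 CPM in the uninduced libraries, a difference of 0.60 ± 0.18 that missed the threshold (adjusted p = 0.0681) and passed it without the 24 h ethanol library (0.64, adjusted p = 0.00872). Its footprint difference was 0.38 ± 0.16 (adjusted p = 0.123).

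FTH1 was lower at later hours in RNA and in cycloheximide footprints under both treatments, which was not tested as a trend. The harringtonine libraries did not follow this order, with 80.5, 79.2, 123.7 and 97.8 CPM at 0, 1, 4 and 24 h of 4-OHT, from 14 to 41 counts each. FTH1 RNA was 441.4 CPM at 0 h, then 397.4, 351.1 and 321.8 CPM at 1, 4 and 24 h of 4-OHT, and 365.7, 321.9 and 260.8 CPM at 1, 4 and 24 h of ethanol. Its footprints were 319.0 CPM at 0 h and 316.6, 216.8 and 146.0 CPM at the 3 times of 4-OHT in replicate 1, 230.8, 212.0 and 188.3 CPM in replicate 2 and 210.1, 201.6 and 120.3 CPM in ethanol. The order over the hours was the same in these RNA and cycloheximide courses, each of 1 library per time. HMOX1 footprints in replicate 2 were 38.0, 17.3 and 8.16 CPM at 1, 4 and 24 h of 4-OHT, and 32.1, 16.4 and 2.63 CPM in ethanol. In replicate 1 they were 4.50 CPM at 0 h and 0.693, 2.32 and 4.95 CPM at 1, 4 and 24 h of 4-OHT, so the 2 replicates under 4-OHT differed most at 1 h.

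The uninduced arm pools 0 h with ethanol at 3 times, so a comparison within the hour was added after the data were seen. At 24 h, FTH1 footprints of 4-OHT to ethanol in replicate 2 had a ratio of 1.56, with a 95% counting interval of 1.38 to 1.77, and RNA 1.23 (1.12 to 1.36). For HMOX1 the footprint ratio was 3.10 (1.45 to 7.18), from 27 counts under 4-OHT and 10 under ethanol. A fit with hour and replicate number as terms gave 0.46 ± 0.22 for FTH1 (adjusted p = 0.268) and 1.98 ± 0.73 for HMOX1 (adjusted p = 0.121), neither past the threshold. Both have the opposite sign to the pooled comparison, in which FTH1 was −0.32 ± 0.27 (adjusted p = 0.481) and HMOX1 −1.04 ± 0.98 (adjusted p = 0.533). No direction can therefore be given for either gene at 24 h. ACO1 ratios at 24 h were 1.48 (1.22 to 1.79) in footprints and 1.36 (1.15 to 1.62) in RNA. Its value in the fit, 0.43 ± 0.22, was not past the threshold. At 4 h, footprint and RNA ratios were 0.844 (0.782 to 0.911) and 0.868 (0.797 to 0.944) for TFRC. They were 0.815 (0.696 to 0.953) and 0.848 (0.739 to 0.973) for IREB2. For SLC11A2 they were 0.741 (0.516 to 1.06) and 4.41 (2.46 to 8.49), the RNA ratio from 70 counts under 4-OHT and 14 under ethanol. In the fit the footprint values at 4 h were −0.14 ± 0.19 for TFRC, −0.22 ± 0.19 for IREB2 and −0.35 ± 0.28 for SLC11A2. None was past the threshold. SLC11A2 RNA in ethanol was 5.39 CPM at 4 h and 23.4 CPM at 24 h, where its RNA ratio was 0.640 (0.423 to 0.963). STEAP1 gave 2.51 ± 0.26 in the same fit (adjusted p = 6.73e-06), in which 801 of 10469 genes passed.

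**Figure D4:**
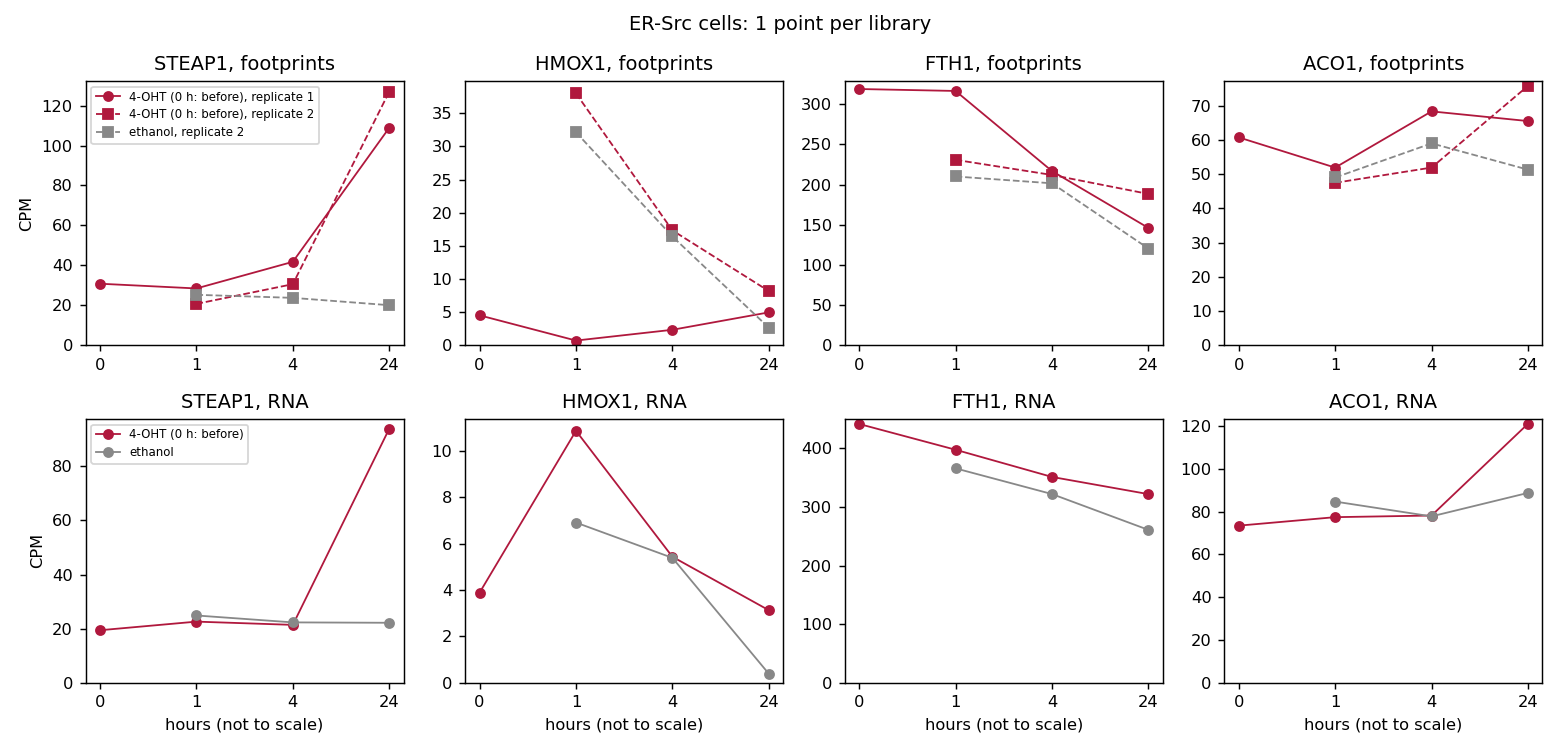
CPM of STEAP1, HMOX1, FTH1 and ACO1 over hours (spaced evenly, not to scale) in ER-Src cells, footprints above and RNA below, with 1 point per library, red for 4-OHT with its 0 h sample and grey for ethanol. STEAP1 separates at 24 h (108.9 and 127.0 CPM of footprints under 4-OHT, 20.01 CPM in ethanol), while FTH1 is lowest at 24 h under both treatments.

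Uninduced epithelial cells differed from EH fibroblasts in 5 of 8 members, 2 higher and 3 lower, in a comparison that called 59.1% of all genes (29.4% higher, 29.7% lower) and in which cell type and library set cannot be told apart. FTL footprints averaged 73.1 CPM in epithelial cells (58.7 to 90.8, n = 4), against 212.7 and 174.4 CPM in EH, a difference of −1.42 ± 0.19 (adjusted p = 2.26e-06). ACO1 stood at −1.71 ± 0.14 (adjusted p = 2.52e-09), IREB2 at 0.90 ± 0.17 (adjusted p = 0.000179) and STEAP1 at 1.19 ± 0.29 (adjusted p = 0.00175). HMOX1, at −2.01 ± 0.67 (adjusted p = 0.0145), was not called without EH replicate 1 or without EH replicate 2, nor with DESeq2, where the highest adjusted p was 0.129. No member passed for ribosome loading by edgeR or DESeq2 (1.08% of all genes did), and 3 had an unadjusted p under 0.05.

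Between the drugs, FTH1 was the member with fewer counts under harringtonine in both cell models, at −0.66 ± 0.20 in the BJ lines (adjusted p = 0.00163) and −1.20 ± 0.22 in ER-Src cells (adjusted p = 7.04e-06). IREB2 was higher under harringtonine in both (0.95 ± 0.19, adjusted p = 3.13e-06, and 0.99 ± 0.18, adjusted p = 1.42e-05), as was ACO1 (0.54 ± 0.13, adjusted p = 0.000148, and 1.01 ± 0.21, adjusted p = 4.95e-05). The ACO1 call in BJ was lost without EH harringtonine replicate 1 (0.33, adjusted p = 0.0992). In BJ, 3 of 7 members tested were higher and 2 lower, the second being HMOX1 (61% of all genes called, 26.1% higher and 34.9% lower). In ER-Src cells, where 1 harringtonine library per time was set against replicate 1 under cycloheximide, 3 of 7 were higher and 1 lower (55.6%, 26.9% higher and 28.7% lower). TFRC was higher in ER-Src cells by 0.57 ± 0.16 (adjusted p = 0.0019). In BJ its difference of 0.20 ± 0.09 was lost in 11 alternatives and turned to −0.007 without EH harringtonine replicate 1.

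Other genes of iron biology place the members in their surroundings. Of 15 tested genes of iron handling outside the members, 2 rose and 4 fell in EL against EH footprints, and 4 rose and 6 fell in ELR against EH, where the median log2 change was −0.02, beside −0.01 over all genes. These are 40.0% and 66.7% of the genes tested, beside 41.5% and 53.4% of all genes. HEPH, a ferroxidase that works with ferroportin, had 34 counts in EH footprints and 38 in EH RNA, and 0 in every EL and ELR library. Against a floor of 3 counts per group it was at least 22.6-fold lower in EL footprints and 21.0-fold lower in ELR footprints. These bounds leave out the counting error of the EH counts. STEAP3, the endosomal reductase that works beside the transferrin receptor, rose by 2.19 ± 0.22 in ELR against EH (adjusted p = 5.52e-14), while CYBRD1, a reductase of the cell surface, fell by 1.71 ± 0.13 (adjusted p = 1.12e-18). SLC25A37, a mitochondrial iron importer, rose by 1.73 ± 0.42 (adjusted p = 0.000268).

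Of 19 tested genes of iron-sulfur cluster assembly, 8 rose and 2 fell in ELR against EH footprints, with a median of 0.46, and 7 rose and 3 fell in EL against EH, with a median of 0.38. FDX1L, a ferredoxin, rose by 1.13 ± 0.29 in ELR against EH (adjusted p = 0.000674), NARFL by 1.03 ± 0.29 (adjusted p = 0.00199) and CIAO1, of the cytosolic pathway, by 0.91 ± 0.14 (adjusted p = 3.99e-08). ISCU, the scaffold, went the other way (−0.76 ± 0.19, adjusted p = 0.000579). The 10 called are 52.6% of the list in each comparison, beside 53.4% of all genes for ELR and 41.5% for EL, and the median over all genes was −0.01 in both. In RNA of ELR against EH, 1 of the 19 was higher and 1 lower (10.5%, beside 11.2% of all genes). Genes of haem synthesis and turnover gave 6 higher and 2 lower of 15 in the ELR against EH footprints (53.3%, beside 53.4% of all genes), among them the exporters ABCG2 (2.57 ± 0.73, adjusted p = 0.00161) and FLVCR1 (1.98 ± 0.56, adjusted p = 0.00168).

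FTH1, FTL and HMOX1 are also targets of NRF2, a transcription factor of the response to oxidants. Of 13 other NRF2 targets tested in BJ footprints, 0 rose and 6 fell in EL against EH, and 2 rose and 6 fell in ELR against EH, with medians of −0.29 and −0.17. These are 46.2% and 61.5% of the list, beside 41.5% and 53.4% of all genes. SLC7A11, the cystine importer, averaged 33.1 CPM in EL and 16.9 CPM in ELR, against 98.1 CPM in EH. It fell by 1.55 ± 0.16 on the log2 scale in EL (adjusted p = 3.03e-13) and by 2.58 ± 0.19 in ELR (adjusted p = 6.31e-20). Its RNA stood at 63.9 CPM in EL and 77.1 CPM in ELR, against 83.4 CPM in EH, and neither RNA change passed the test (adjusted p = 0.652 and 0.882). The ribosome loading change in ELR against EH, −2.47 ± 0.70, did not pass either (adjusted p = 0.172). TXNRD1, a thioredoxin reductase, fell by 0.77 ± 0.06 in EL (adjusted p = 3.74e-19) and 0.83 ± 0.06 in ELR (adjusted p = 1.45e-20). OSGIN1 (1.22 ± 0.44, adjusted p = 0.0156) and GCLC (0.83 ± 0.36, adjusted p = 0.0426) were the 2 that rose in ELR against EH. In ER-Src cells at 24 h of 4-OHT, 0 rose and 3 fell of 15 in footprints and 0 rose and 5 fell of 16 in RNA, with medians of −0.80 and −0.81. These are 20% and 31.2% of the list, beside 14.6% and 5.65% of all genes. TXNRD1 RNA fell by 1.57 ± 0.41 (adjusted p = 0.0348) and SLC7A11 RNA by 1.49 ± 0.31 (adjusted p = 0.00977). List comparisons at 24 h are against the pooled 0 h and ethanol libraries, and no list was compared within the hour. SLC7A11 RNA was 57.0 CPM at 24 h of 4-OHT and 102.8 CPM at 24 h of ethanol. At 1 and 4 h of ethanol it was 184.9 and 198.3 CPM. BACH1, a repressor of HMOX1 and ferritin genes, averaged 69.5 ± 8.5 CPM in footprints at 24 h of 4-OHT (SD, n = 2) and 38.1 ± 7.0 CPM in uninduced cells (n = 4).

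At 24 h of 4-OHT, 4 of 16 other tested genes of iron handling rose in footprints, none fell and 12 were not called. In RNA likewise 4 of 16 rose and none fell. These are 25% in each measure, where 8.8% of all genes rose in footprints and 4.22% in RNA. Beside them 5 of 10 epithelial, 1 of 4 fibroblast and 1 of 2 leukocyte markers tested rose in footprints, and their part in the result was not tested. STEAP2, whose gene lies next to STEAP1's on chromosome 7 (89841054 to 89866997), averaged 34.4 ± 4.8 CPM in footprints at 24 h of 4-OHT (n = 2) and 6.36 ± 3.68 CPM in uninduced cells (n = 4), a rise of 2.56 ± 0.32 (adjusted p = 4.73e-05). SLC39A8, which imports zinc and iron, rose by 1.40 ± 0.17 (adjusted p = 2.96e-05). STEAP4, on the same chromosome (87900207 to 87936209), was already up at 4 h, with 35 footprint counts in 2 libraries, against 3 counts in the 4 uninduced libraries, a ratio of 25.6 with a 95% counting interval of 8.08 to 130.3. At 24 h it had 13 counts, a ratio of 9.47 (2.60 to 51.8). STEAP3, on chromosome 2, averaged 49.5 ± 14.9 CPM at 24 h of 4-OHT (n = 2) and 58.7 ± 7.4 CPM in uninduced cells (n = 4) and was not called. Among the other messages known to carry iron-responsive hairpins, EPAS1 rose by 1.44 ± 0.16 (adjusted p = 1.8e-05) and CDC42BPA by 0.75 ± 0.15 (adjusted p = 0.00279), 2 of 3 tested. The strict hairpin pattern used here was not found in the canonical transcript of either gene.

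Over the 16 cycloheximide libraries, which differ in cell type and depth, the genes whose CPM tracked FTH1 most closely among 8643 were ATP6V0E1, EIF4E and MTPN (Pearson r = 0.934, 0.930 and 0.927). For FTL they included ZFR and MCFD2 (r = 0.963 and 0.959), and for TFRC they were MIER3, STX17 and NUP160 (r = 0.815, 0.814 and 0.781). The points share libraries and most of their spread lies between cell models.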

How the data were processed

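Per the labels, RNA and ribosome footprints were sequenced in 36 libraries of 2 human cell models. The deposited values are counts per transcript, made by the authors from reads aligned with TopHat to hg19 (GRCh37), per the submitters' processing notes, which give no versions. No source used here names the program that counted reads. Values per kilobase or per coding base divide by coding length, and the part of a transcript that counts cover was not checked. Of 36499 transcript rows (19137 symbols, 7636 with several rows), the row with the highest mean count stood for its gene, and rows without a symbol numbered 0. Members and gene lists were chosen with earlier results of these data known. Groups followed the labels. The uninduced ER-Src arm pooled 0 h and ethanol libraries. Models were edgeR 4.0.16 quasi-likelihood fits in R 4.3.3 with TMM scaling, its low-count filter (minimum count 10, total 15), two-sided tests, and Benjamini-Hochberg adjustment over all genes of a fit, with calls at an adjusted p under 0.05. Ribosome loading was an interaction of assay and group. Single RNA libraries were assumed to vary like the 4 uninduced ER-Src RNA libraries. Fits covered 3553 to 11976 genes. CPM levels used 1 TMM scaling over all libraries, and ratios to RNA used a pseudocount of 1 CPM. Lists are given by counts and medians, with up to 4 called genes of largest change named. The most similar genes had a mean of at least 10 CPM. Some genes that these rules name are not reported here. Counting intervals are exact 95% intervals and floors are 3 counts. The intervals cover counting error only, without spread between libraries, and folds against a floor leave out the error of the other count. The reads carry no molecular identifiers, so duplicate reads count in full and the intervals may be too narrow. Scripts were tested on simulated data. Alternatives were DESeq2 1.42.0, RLE scaling, no filter, summed rows, other sets of libraries, a replicate block and leaving out each library in turn. A fit by hour was added after seeing the data. A check for a far-off sample, over 16 combinations of a gene and a group of 4 libraries, found 0.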

Additional observations from a re-analysis of the deposited data

How the results depend on the processing

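Of the member values under all alternatives, 1937 kept direction and side of the threshold. These include values that were not called in either fit. A further 59 lost the call, which only a called value could do, and 21 gained one. Another 145 turned sign without passing in either fit. The 1 that turned sign from a called value was TFRC under harringtonine against cycloheximide in BJ (−0.006752 to 0.223 with 1 library left out, lowest without EH harringtonine replicate 1). The number of members called moved by over 1.5 times as follows. For ELR against EL footprints it was 3 with DESeq2 and 3 to 6 with 1 library left out, lowest without ELR replicate 1. For ELR against EH footprints it was 3 in the fit of all cycloheximide libraries and 2 with DESeq2. For harringtonine, EL against EH gave 0 with DESeq2, 0 with summed rows and 0 to 1 with 1 library left out, lowest without EH replicate 2. Harringtonine in ELR against EH gave 1 with DESeq2, 1 with summed rows and 1 to 2 with 1 library left out. RNA calls in EL against EH numbered 1 with DESeq2 and 1 with summed rows, and those in ELR against EL numbered 1 with summed rows. For ribosome loading, fits of the cell models compared alone called 2 in EL against EH, 4 in ELR against EL and 2 in ELR against EH. The last gave 2 without a filter, 1 with RLE scaling and 0 to 1 with 1 library left out. RNA at 24 h of 4-OHT gave 1 to 2 with 1 library left out, highest without the 24 h ethanol library. Harringtonine against cycloheximide in BJ gave 3 to 5. In BJ, replicate numbers did not pair the samples: same-numbered libraries deviated together with r of −0.009 to 0.034. In ER-Src cycloheximide libraries r was 0.036 to 0.192, and some members differed by replicate number at each hour of 4-OHT. TFRC had 302.0, 343.2 and 421.3 CPM at 1, 4 and 24 h in replicate 1, and 525.3, 415.4 and 558.0 CPM in replicate 2. FTL, IREB2 and HMOX1 were also higher in replicate 2 at each hour and SLC11A2 was lower. FTH1, ACO1 and STEAP1 were mixed. With the replicate number as a block, 6 members were called in each of the 3 BJ footprint comparisons and 1 at 24 h of 4-OHT, as without it. Depth limits SLC40A1, HMOX1 and every harringtonine value. Except where stated, the cause of a change was not tested.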
